A study of Mus musculus with 75 samples.

Results

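The genes described here were the collagen chains other than type IV: the protein-coding genes whose Ensembl symbol is Col, a number, a, and a number, without Col4a1 to Col4a6. The rule found 38 genes among the 55536 genes of the count table. By class there were 11 fibrillar chains, 9 fibril-associated (FACIT) chains, 6 beaded-filament chains of type VI, 3 network-forming chains, 4 transmembrane chains, 2 multiplexin chains (Col15a1 and Col18a1) and 3 further chains (Col7a1, Col26a1 and Col28a1). The study sequenced poly(A) RNA of the right inferior lung lobe of 75 mice, all C57BL/6JRj males 12 to 14 weeks old, with 9240291 to 14665247 counts per library (median 10677163). The CTRL group held 10 mice, which the sample titles call saline and the study's methods call untreated. The other mice received 1 intratracheal instillation of bleomycin (BLEO, 1.5 mg/kg), a DNA-damaging drug that produces lung fibrosis, and were killed on day 7 (n = 10), day 14 (n = 12), day 21 (n = 12), day 28 (n = 12), day 35 (n = 12) or day 42 (n = 7). Only BLEO mice that had lost 5 to 17% of their body weight by day 6 entered these groups, so the groups stand for that range of response.

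Collagens are built from 3 alpha chains that wind into a helix along stretches of the repeat Gly-X-Y, in which glycine opens each triplet. Fibrillar chains form the banded fibrils that carry tension, FACIT chains sit on the fibril surface, type VI chains form microfibrils around cells, network chains form sheets, and transmembrane chains anchor cells to the matrix. In the lung, fibroblasts and myofibroblasts make most of the fibrillar collagen, and scar tissue consists largely of types I and III. In bulk lung RNA, more cells of a type and more RNA per cell cannot be told apart.

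The fibrillar chains stood apart from the other classes in the length of their repeat. In the longest coding transcript of GENCODE vM21 (build GRCm38), the longest unbroken run of glycine-first codon triplets was 216 to 344 triplets in the fibrillar chains, 60 to 61 in the network chains, 40 to 56 in the transmembrane chains, 37 to 87 in the type VI chains and 32 to 113 in the FACIT chains. The FACIT and type VI ranges overlapped each other and those of the network and transmembrane chains, which did not overlap each other. Of the 627 wholly coding exons of the fibrillar chains 48.6% were exactly 54 bases long, against 26.3% of 415 in the FACIT chains and 8.21% of 207 in the type VI chains. The stretches of 54 bases shown here are from the chains that carry the results below, with the glycine codon that opens each triplet in capitals. They are a whole exon in Col1a1 (chr11:94939904-94939957, plus strand, exon 8), Col1a2 (chr6:4515481-4515534, plus, exon 8), Col3a1 (chr1:45325360-45325413, plus, exon 6), Col5a2 (chr1:45422386-45422439, minus, exon 10), Col11a1 (chr3:114108281-114108334, plus, exon 15) and Col6a1 (chr10:76719623-76719676, minus, exon 9). They are 54 bases of the longest run, within 1 exon, in Col10a1 (chr10:34394928-34394981, plus, exon 3) and Col17a1 (chr19:47664964-47665017, minus, exon 24).
Col1a1: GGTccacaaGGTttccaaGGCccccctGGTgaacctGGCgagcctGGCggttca
Col1a2: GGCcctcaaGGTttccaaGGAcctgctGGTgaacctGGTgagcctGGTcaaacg
Col3a1: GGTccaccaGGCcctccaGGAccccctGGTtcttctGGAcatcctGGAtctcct
Col5a2: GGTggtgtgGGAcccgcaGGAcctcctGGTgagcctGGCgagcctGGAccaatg
Col11a1: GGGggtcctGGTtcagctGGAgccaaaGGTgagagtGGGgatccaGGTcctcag
Col6a1: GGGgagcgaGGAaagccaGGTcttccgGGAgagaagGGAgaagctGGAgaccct
Col10a1: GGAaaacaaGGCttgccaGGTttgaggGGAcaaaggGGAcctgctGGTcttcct
Col17a1: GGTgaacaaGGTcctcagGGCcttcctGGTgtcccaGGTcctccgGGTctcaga

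Of the 38 collagen genes 33 passed the filter on low counts and were tested in an edgeR quasi-likelihood fit of all 75 mice over 16221 genes, with a call at an adjusted p below 0.05. The other 5 were Col2a1, Col9a1, Col9a2, Col19a1 and Col25a1. Levels are given as CPM, which divides a gene's counts by its library's total over the tested genes after TMM scaling, differences as log2FC ± SE. A total of 25 collagen genes rose on at least 1 day against the same 10 CTRL mice, 4 fell on at least 1 day (Col8a2, Col17a1, Col20a1 and Col23a1), and 4 were called on no day in this fit (Col9a3, Col13a1, Col14a1 and Col26a1). Shares of all genes are given below for each single day, and none was taken over the 6 days together. On day 7, 15 rose and 2 fell, against 24.8% of all tested genes called up and 21.0% called down (45.8% in either direction). On day 14, 23 rose and 3 fell, against 32.4% and 29.9% of all genes (62.4% in either direction). On day 14 every mouse was above every CTRL mouse in 20 of the 33 collagen genes (9.46% of all genes) and below in 1 (6.15%). On day 7 the groups did not overlap in 13 genes above CTRL (7.39% of all genes) and 1 below (3.8%). Day 21 had 22 up and 3 down (all genes 28.3% and 25.8%, 54.2% in either direction), and 17 genes were above (6.84%) and 1 below (4.85%) without overlap. Day 28 had 23 up and 3 down (24.1% and 19.2%, together 43.3%), with 5 genes above (2.1%) and 0 below (1.34%) without overlap. Day 35 had 16 up and 2 down (16.9% and 13.1%, together 29.9%), with 8 above (2.43%) and 1 below (1.34%). Day 42 had 9 up and 3 down (13.7% and 11.0%, together 24.7%), with 5 above (4.22%) and 1 below (3.37%). The median log2FC of the tested collagen genes went from 0.60 (day 7) through 1.21 (day 14) and 0.96 (day 28) to 0.30 (day 42), while the median of all genes was between -0.01 and 0.02 on every day. The count of calls on day 42, 12 in either direction, was 7 without mouse 7 of that day, 7 to 13 when each of the 75 mice was left out in turn, and 8 with no filter.

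**Figure D1:**
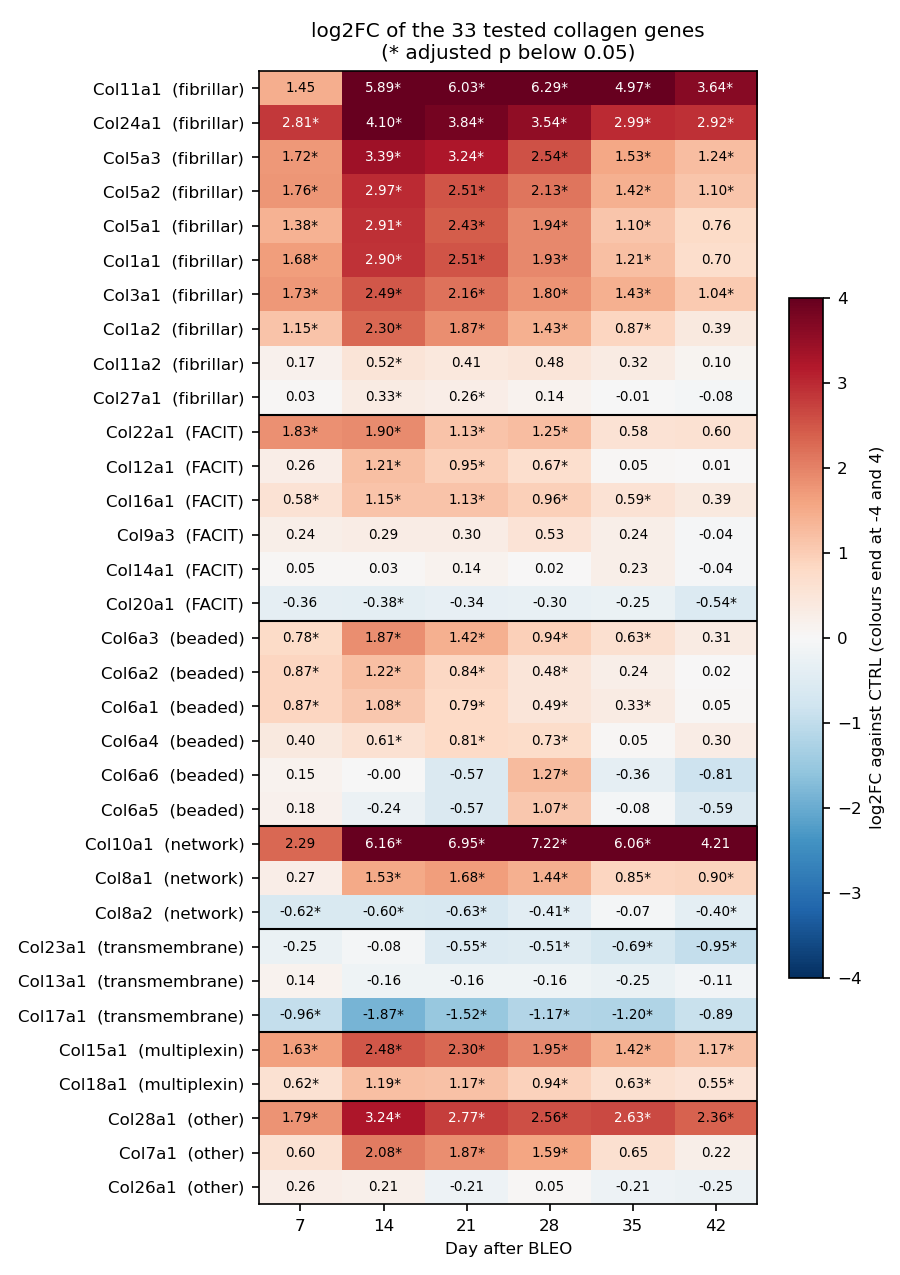
log2FC against CTRL (colour and printed value) of the 33 tested collagen genes (rows, by class) on each of 6 days after BLEO (columns), with an asterisk where the adjusted p was below 0.05. Of the 10 fibrillar rows all carry an asterisk on day 14 and 5 on day 42. Col8a2, Col17a1, Col20a1 and Col23a1 have values below 0 on all 6 days. The values of Col10a1 are fitted against a CTRL group at 0 counts and are no estimate of its fold.

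One library stood apart. Day 28 mouse 10 had 1335 CPM of 6 skeletal muscle markers, where the next highest library had 17.8 and the median was 6.89, and it also had the highest sum of cardiac muscle markers (2293 CPM, next 805) and of Schwann cell markers (146, next 99.0). Without it the day 28 calls of Col6a5, Col6a6 and Col9a3 changed, as given beside those genes.

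The fibrillar class had the highest median of the classes on day 14. All 10 tested fibrillar chains rose on day 14 (32.4% of all genes), with a median log2FC of 2.91 and a range of 0.33 to 5.89. Col1a1, the alpha 1 chain of type I, the main collagen of scars, was at 233 to 443 CPM in the CTRL mice (median 325), at 692 to 1525 on day 7 (median 944) and at 1029.7 to 4465 on day 14 (median 1969.9). Every BLEO mouse was above every CTRL mouse on both days. Its level then declined over median values of 1348 on day 21, 888 on day 28 and 613 on day 35 to 548 CPM on day 42, where the mice (369 to 762) overlapped the CTRL range. The log2FC was 1.68 ± 0.33 on day 7 (adjusted p = 2.2e-05), 2.90 ± 0.33 on day 14 (2.4e-11), and 0.70 on day 42, which missed the threshold (0.13). In a fit of only the CTRL and day 42 groups the same difference passed (adjusted p = 0.00049), as did those of Col1a2 (0.40, 0.0040) and Col5a1 (0.77, 9.9e-05).

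Col1a2, the partner chain of type I collagen, was at 559 to 765 CPM in CTRL (median 663) and at 1615 to 5278 on day 14 (median 2893). Col3a1, whose product forms thin reticular fibrils with type I, was at 449.9 to 869 CPM in CTRL (median 621), 2155 to 5252 on day 14 (median 3471) and 1031 to 1637 on day 42 (median 1341). Every day 42 mouse was still above every CTRL mouse in Col3a1, but not in Col1a1 or Col1a2. The log2FC of Col3a1 was 2.49 ± 0.19 on day 14 and 1.04 ± 0.20 on day 42 (adjusted p = 7.6e-05), and that of Col1a2 was 2.30 ± 0.26 and 0.39 (0.31). Per kilobase of merged exon, Col6a1 had the highest CTRL median among the collagen genes (83.4 CPM per kb), ahead of Col3a1 (63.3), Col1a2 (53.3) and Col1a1 (49.6). On day 14 the order was Col3a1 (354 CPM per kb), Col1a1 (300.2), Col1a2 (233) and Col6a1 (163). Both orders depend on the length used. The merged exons, which join all annotated transcripts, were 4380 bases in Col6a1, 9816 in Col3a1, 12426 in Col1a2 and 6563 in Col1a1. The longest coding lengths were closer together, at 3075, 4392, 4116 and 4359 bases, so these orders need not rank the chains by RNA molecules.

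Type V collagen starts fibrils and limits their width. Its chains rose with type I: on day 14 the log2FC was 2.91 ± 0.33 for Col5a1, 2.97 ± 0.29 for Col5a2 and 3.39 ± 0.42 for Col5a3. Col5a2 was at 92.5 to 144 CPM in CTRL (median 127), 429 to 1511 on day 14 (median 862) and 185 to 406 on day 42 (median 266), with no overlap of CTRL by either day. Col5a3 started far lower, at 4.5 to 11.3 CPM in CTRL (median 6.69), and reached 21.3 to 189.5 on day 14 (median 57.6). On day 42 Col5a2 (1.10 ± 0.30, adjusted p = 0.0043) and Col5a3 (1.24 ± 0.46, 0.039) were still called up, Col5a3 losing its call in 11 of the 75 leave-one-out fits and without the filter (0.067).

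Col11a1 and Col24a1 had the highest log2FC of this class on day 14, from levels near the limit of the counts. Col11a1, a chain of the thin fibrils of cartilage, was at 0 to 0.395 CPM in CTRL (median 0.0953), 0.0880 to 0.924 on day 7 (median 0.291) and 0.738 to 27.9 on day 14 (median 6.44). The highest mice came later, at 40.2 CPM on day 21 and 47.9 on day 28, although the medians had by then fallen to 2.97 and 1.19. Its log2FC was 5.89 ± 1.15 on day 14 (adjusted p = 1.1e-05) and 6.29 ± 1.14 on day 28 (8.9e-06), and on each day from day 21 on some BLEO mice overlapped CTRL. On day 42 the log2FC of 3.64 ± 1.39 (adjusted p = 0.045) rested on mouse 7 of that day at 8.88 CPM, with the other 6 mice at 0.172 to 0.988. Without that mouse it was 1.95 and not called, and the call was also lost without the filter (adjusted p = 0.089). Col24a1, a minor fibrillar chain best known from bone, was at 0.190 to 0.928 CPM in CTRL (median 0.439) and 3.36 to 15.5 on day 14 (median 7.49), a log2FC of 4.10 ± 0.44. It was called up on all 6 days and still stood at 2.92 ± 0.49 on day 42 (adjusted p = 5.8e-06), where the mice overlapped CTRL. Both Col11a1 and Col24a1 passed the filter through BLEO mice, the groups where they were high. In fits of only the groups compared, Col11a1 on days 21 to 42 and Col24a1 on day 42 were not among the calls.

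Col11a2 and Col27a1 had the smallest changes of the tested fibrillar chains. Col11a2 was called on day 14 alone (0.52 ± 0.20, adjusted p = 0.023, lost in 4 of the 75 leave-one-out fits), and Col27a1 on day 14 (0.33 ± 0.11, 0.0073) and day 21 (0.26 ± 0.11, 0.037). The day 21 call of Col27a1 was lost with DESeq2 (adjusted p = 0.051), with another scaling (0.056 by library size only and 0.058 by upper quartile) and in 17 of the 75 fits. Col2a1, the main fibrillar chain of cartilage, did not pass the filter; it had a count in 4 of 10 CTRL mice, at most 0.209 CPM, in all 10 mice of day 7 (0.0880 to 0.826 CPM) and in all 12 of day 14 (0.0926 to 0.924 CPM). Fitted without the filter, its log2FC was 2.89 on day 7 (adjusted p = 7.3e-05), 2.76 on day 14 (5.6e-05) and 2.57 on day 21 (0.00030).

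Markers of activated fibroblasts and of cartilage were read beside these chains. The summed level of 8 activated fibroblast markers (Cthrc1, Postn, Tnc, Fap, Lrrc15, Acta2, Tagln and Spp1) was 989 to 1271 CPM in CTRL, 2215 to 10081 on day 14 and 1267 to 3816 on day 42, and all 8 rose on day 14. For each list here, the shares of all genes on day 14 were 32.4% up and 29.9% down. Spp1, which macrophages also make, held much of this sum on day 14 (826 to 7806 CPM, against 26.99 to 122 in CTRL). The other 7 markers summed to 913 to 1149.7 CPM in CTRL, 1389 to 2641 on day 14 and 962 to 1284 on day 42, so that day 42 overlapped CTRL. Of 6 macrophage markers 5 rose and 0 fell on day 14, and that list summed to 364 to 416 CPM in CTRL and 619 to 1173 on day 14. The 8 markers of resting lung fibroblasts summed to 4141 to 5122 CPM in CTRL and 1552 to 2829 on day 14, where 2 rose and 6 fell. Of 10 cartilage markers 5 were tested on day 14, of which 3 rose and 2 fell, and the list summed to 21.9 to 34.1 CPM in CTRL and 5.46 to 17.9 on day 14. Acan, the cartilage proteoglycan aggrecan, was at 0 in all 10 CTRL mice and at most 0.768 CPM on day 14. The part of these cells in the collagen levels was not tested.

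**Figure D2:**
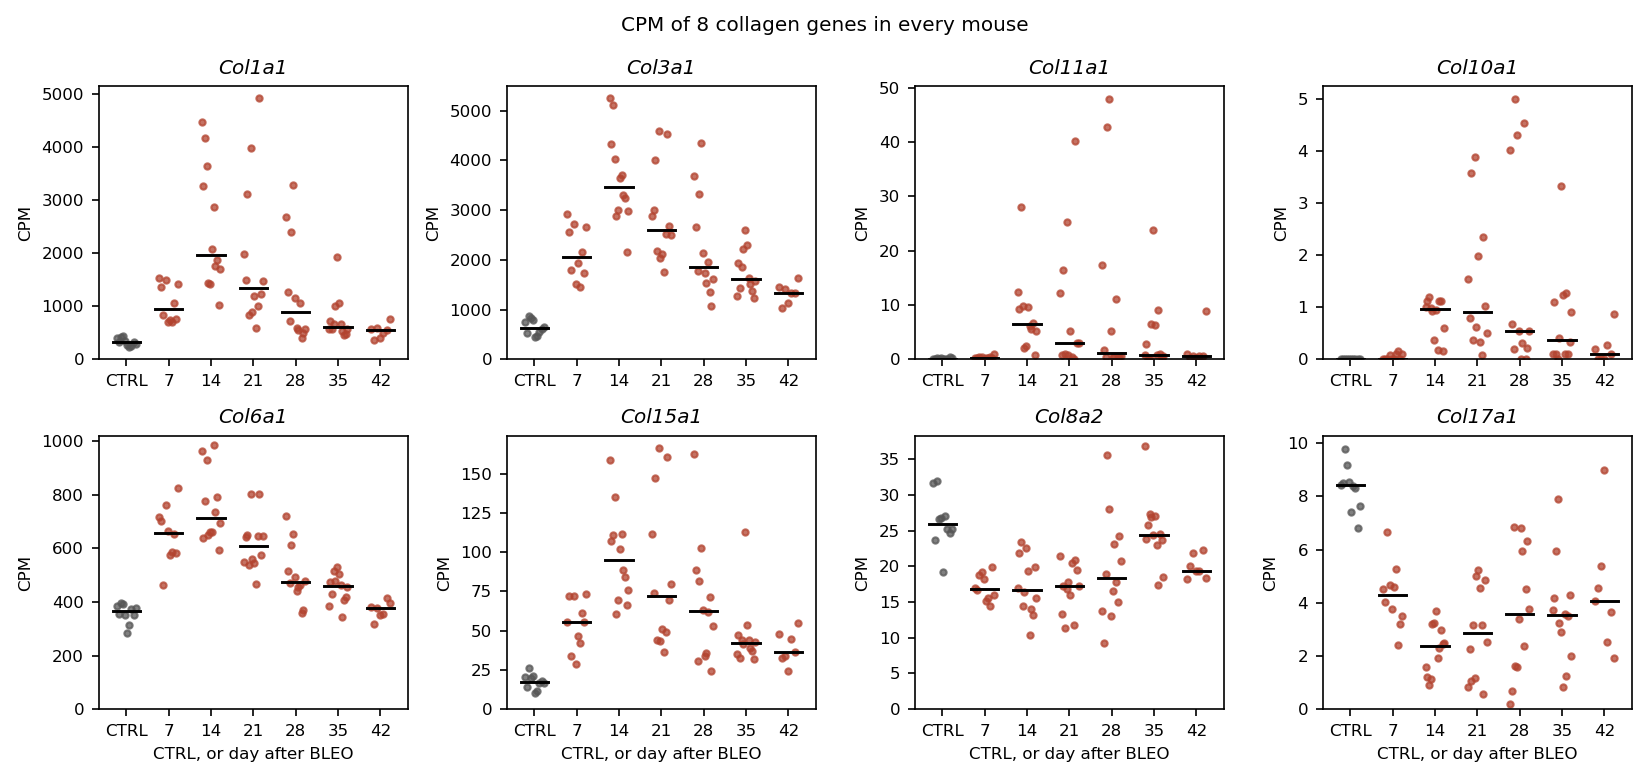
CPM (linear axes from 0) of 8 collagen genes in each of the 75 mice (points), by group, with the group median as a line. Col1a1, Col3a1, Col6a1 and Col15a1 have their highest medians on day 14, single mice of days 21 and 28 reach the highest values of Col11a1 and Col10a1, and Col17a1 is lowest on day 14.

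Chains of the same fibril did not keep their proportions. The ratio was taken within each library, as log2 of (count + 2) over (count + 2), so that library size cancels, and was tested with two-sided permutation tests of the mean ratio, adjusted over 24 tests. The ratio of Col1a2 to Col1a1 had a mean of 1.02 ± 0.177 (SD, n = 10) on the log2 scale in CTRL and 0.456 ± 0.165 (n = 12) on day 14, a difference of -0.57 ± 0.07 (SE, adjusted p = 0.00016 in a permutation test, resting on the smallest p that 100000 resamples can give). All 12 day 14 mice were below all CTRL mice in this ratio, and so were all 10 mice of day 7 (difference -0.52 ± 0.07). Per base of merged exon the ratio went from 1.07 Col1a2 per Col1a1 in CTRL to 0.724 on day 14 and 0.859 on day 42. The level of the ratio, unlike its change between groups, depends on the merged exon lengths (12426 and 6563 bases) and is no ratio of molecules. On day 42 it was still lower than in CTRL (-0.32 ± 0.07, adjusted p = 0.0022, exact permutation test), with 5 of 7 mice below the CTRL range, although neither chain was then called on its own in the fit of all groups.

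The ratio of Col3a1 to Col1a1 changed sides. It was lower than in CTRL on day 14 (-0.30 ± 0.11, adjusted p = 0.032, permutation test; 5 of 12 mice below all CTRL mice) and higher on day 35 (0.32 ± 0.10, 0.014; 8 of 12 mice above all CTRL mice) and day 42 (0.37 ± 0.07, 0.0014, exact permutation test; 6 of 7 mice above). On days 7, 21 and 28 the difference was 0.09 ± 0.07, -0.11 ± 0.16 and 0.11 ± 0.14, and none passed. The ratio of Col5a2 to Col5a1 was higher than in CTRL on day 7 (0.39 ± 0.07, adjusted p = 0.00038, permutation test), day 28 (0.19 ± 0.05, 0.0060), day 35 (0.33 ± 0.08, 0.0014) and day 42 (0.31 ± 0.10, 0.0082, exact). It did not pass in the same permutation test on day 14 (0.14 ± 0.08, adjusted p = 0.19) or day 21 (0.15 ± 0.08, 0.14). The ratio of Col6a2 to Col6a1, a pair that is joined in 1 protein, differed from CTRL on day 14 alone, by 0.13 ± 0.04 (adjusted p = 0.0063, permutation test).

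**Figure D3:**
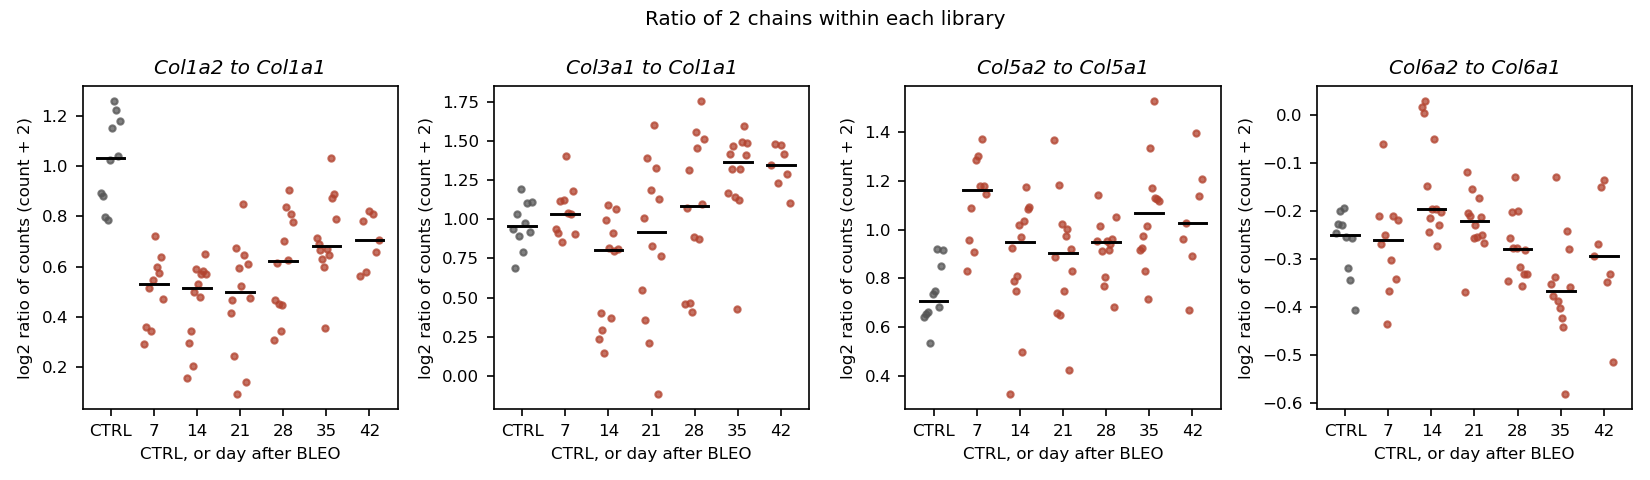
log2 ratio of the counts of 2 chains in each of the 75 mice (points; the axes do not start at 0), by group, with the group median as a line. Col1a2 to Col1a1 is lower on every day than in CTRL, while Col3a1 to Col1a1 has its lowest median on day 14 and its highest on days 35 and 42.

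The 38 genes together took 0.268 to 0.407% of the counts of a CTRL library (median 0.336%), 0.777 to 2.22% on day 14 (median 1.27%) and 0.377 to 0.591% on day 42 (median 0.484%). Within these collagen counts the share of Col1a1 had a median of 9.71% in CTRL, 15.6% on day 14 and 11.2% on day 42, and that of Col3a1 18.6%, 26.9% and 27.5%. Col1a2 stayed between 17.6 and 22.5% in the medians of all groups. The 6 type VI chains held 25.5% in CTRL, 16% on day 14 and 19.7% on day 42. These shares sum over the members and were not tested.

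**Figure D4:**
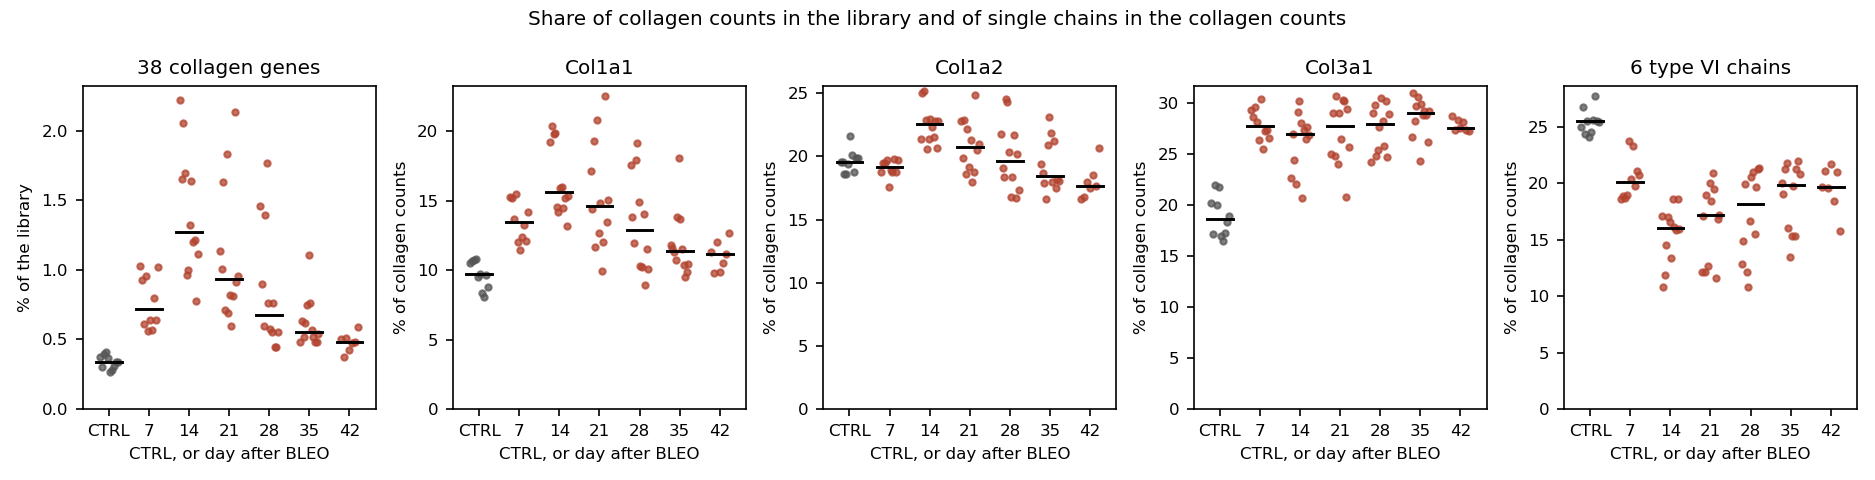
Percent of all counts taken by the 38 collagen genes (first panel) and percent of those collagen counts taken by Col1a1, Col1a2, Col3a1 and the 6 type VI chains in each of the 75 mice (points, axes from 0), with the group median as a line. The collagen share peaks on day 14 (median 1.27%), where the type VI share is lowest (median 16%).

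The type VI chains split into a group that rose early and a group at the edge of detection. Col6a1, Col6a2 and Col6a3, which together make the common form of type VI collagen, rose on days 7 to 28. Col6a1 was at 284 to 396 CPM in CTRL (median 365), 463 to 825 on day 7 (median 658), 595 to 985 on day 14 (median 715) and 316 to 414 on day 42 (median 377), back within reach of the CTRL range. The log2FC on day 7 was 0.87 ± 0.10 for Col6a1, 0.87 ± 0.12 for Col6a2 and 0.78 ± 0.22 for Col6a3. On day 14 it was 1.08 ± 0.10, 1.22 ± 0.11 and 1.87 ± 0.22. Between days 7 and 14 Col6a3 rose further by 1.09 ± 0.22 (adjusted p = 0.00031) and Col6a2 by 0.35 ± 0.11 (0.021, lost in 3 of the 75 fits), while Col6a1 was not called. Col6a3 also had the widest range on day 14, at 348 to 2042 CPM (median 503). None of the 6 type VI chains was called on day 42, when 24.7% of all genes were called in either direction, so that 0 of 6 says little about the class.

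Col6a4, Col6a5 and Col6a6 are chains of type VI that can take the place of Col6a3 and had medians of 1.14, 0.952 and 0.504 CPM in CTRL. Col6a4 was called up on day 14 (0.61 ± 0.24, adjusted p = 0.024, lost without the filter at 0.053), day 21 (0.81 ± 0.24, 0.0032) and day 28 (0.73 ± 0.24, 0.0097). Col6a5 (1.07 ± 0.46) and Col6a6 (1.27 ± 0.46, adjusted p = 0.020) were called up on day 28 alone, and both rested on day 28 mouse 10, the library with the muscle markers. That mouse had 18.05 CPM of Col6a5 and 11.8 of Col6a6, where the other day 28 mice had at most 1.18 and 1.27. Without it and without the filter, the log2FC on day 28 was -0.58 ± 0.32 for Col6a5 (adjusted p = 0.27) and -0.15 ± 0.36 for Col6a6 (0.95). The part of muscle RNA in these values was not tested.

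Among the FACIT chains, 3 of 6 tested rose on day 14 and 1 fell, against 32.4% and 29.9% of all genes (62.4% in either direction). The share called in either direction was thus near that of all genes. Col12a1, which binds type I fibrils, was not called on day 7 (0.26 ± 0.20) and then went from 69.2 to 133 CPM in CTRL (median 111) to 138 to 438 on day 14 (median 239), with no overlap. Its log2FC was 1.21 ± 0.20 on day 14 (adjusted p = 4.8e-07) and 0.01 on day 42. Col16a1 was at 54.5 to 73.4 CPM in CTRL (median 63) and 103 to 175 on day 14 (median 137), a log2FC of 1.15 ± 0.16, and remained called through day 35 (0.59 ± 0.16). Col22a1, a chain known from tissue junctions such as that of muscle and tendon, was already up on day 7: 0.191 to 0.889 CPM in CTRL (median 0.545), 1.33 to 2.67 on day 7 (median 1.65) and 1.07 to 3.99 on day 14 (median 1.80). Its log2FC was 1.83 ± 0.28 on day 7 (adjusted p = 3.0e-07) and 1.90 ± 0.28 on day 14, and no BLEO mouse of either day overlapped CTRL. Col22a1 passed the filter through BLEO mice, the groups where it was high, so its p-values are no separate support. In fits of only the groups compared, it kept its calls of days 7 and 14 and lost those of days 21 and 28.

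Col20a1 was called down on day 14 (-0.38 ± 0.16, adjusted p = 0.034) and day 42 (-0.54 ± 0.19, 0.028), both lost without the filter (0.068 on each day); 182.6% as many reads as its own were counted for a gene that overlaps it on the same strand, so that its level is uncertain. Col14a1, a FACIT chain of resting connective tissue, was at 54.1 to 101 CPM in CTRL and 39.4 to 102 on day 14 and was called on no day. Col9a3, at 0.543 to 1.08 CPM in CTRL, was not called on any day in the fit of all 75 mice, but on day 28 its log2FC of 0.53 (adjusted p = 0.084) became 0.62 and was called (0.037) without day 28 mouse 10. Col9a1 had no count in any CTRL mouse and 8 counts over the 10 mice of day 7, at least 2.62-fold above the limit that 3 counts over the CTRL group allow. Col9a2 and Col19a1 stayed below 0.5 CPM in every mouse.

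In the network class, Col10a1 appeared in lungs where it had not been counted. Type X collagen is known from the hypertrophic zone of growing cartilage. It had 0 counts in all 10 CTRL mice and 5 over the 10 day 7 mice, and then 0.164 to 1.20 CPM on day 14 (median 0.961), with a count in all 12 mice. The range widened to 0.0835 to 3.88 CPM on day 21 and 0 to 4.99 on day 28. Against the limit of 3 counts over the CTRL group, its level was at least 29.4-fold higher on day 14. The same bound was 49.995-fold for day 21, 62.2-fold for day 28, 27.7-fold for day 35 and 7.30-fold for day 42, where it rested on 15 counts, 9 of them from mouse 7, and was 3.38-fold without that mouse. The call was made on days 14 to 35 (adjusted p = 3.2e-05 on day 14 and 1.3e-06 on day 28). On day 42 it missed (0.053), with 0 to 0.869 CPM (median 0.0992). With 0 counts in CTRL, Col10a1 passed the filter only through the BLEO groups where it was high, so these p-values are no separate support. In fits of only the groups compared it was not among the calls of days 14 to 35. Col10a1 lies opposite Nt5dc1, which had 20639 counts in all against 615 for Col10a1, and the strand setting of the counting is not given in the sources used here, so that reads of Nt5dc1 may have been counted for it. The cartilage markers beside it are given above.

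Col8a1 and Col8a2, the chains of type VIII collagen of vessel walls and of the cornea's Descemet membrane, moved apart. Col8a1 was at 16 to 20.4 CPM in CTRL (median 19.3), 28.3 to 78.0 on day 14 (median 58) and 24.5 to 53.2 on day 42 (median 27.6), above all CTRL mice on both days. Its log2FC was 1.53 ± 0.27 on day 14 (adjusted p = 1.8e-06), 1.68 ± 0.27 on day 21 and 0.90 ± 0.30 on day 42 (0.023, lost without mouse 5 or mouse 7 of that day). Col8a2 was at 19.2 to 31.9 CPM in CTRL (median 25.9) and 10.3 to 23.4 on day 14 (median 16.7), a log2FC of -0.60 ± 0.13 (adjusted p = 8.1e-05). It was called down on every day but day 35, the day 42 call (-0.40 ± 0.15) being lost in 37 of the 75 leave-one-out fits, under both other scalings and without the filter.

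None of the 3 tested transmembrane chains rose on any of the 6 days, when 13.7% (day 42) to 32.4% (day 14) of all genes did. With 3 chains this says little about the class. Col17a1, a component of the hemidesmosomes that fix epithelial cells to the basement membrane, was at 6.82 to 9.80 CPM in CTRL (median 8.42), 2.42 to 6.66 on day 7 (median 4.28) and 0.898 to 3.69 on day 14 (median 2.39), below every CTRL mouse on both days. Its log2FC was -0.96 ± 0.32 on day 7 (adjusted p = 0.012) and -1.87 ± 0.32 on day 14 (7.1e-07). It then went up again by 0.98 ± 0.35 from day 14 to day 42 (0.026, lost without mouse 4 of day 42), where it reached 1.93 to 9.01 CPM (median 4.05) and missed the call against CTRL (-0.89, 0.059), which it made in a fit of only those groups (-0.88, 0.0016). The markers of basal epithelial cells, which carry hemidesmosomes, did not fall beside it: of 5 tested 1 rose and 0 fell on day 14, and the list summed to 1.62 to 4.21 CPM in CTRL and 2.35 to 8.45 on day 14. Of 6 AT1 cell markers 1 rose and 3 fell on day 14, when 32.4% of all genes rose and 29.9% fell. The share of AT1 markers called in either direction was thus near that of all genes. Of 6 AT2 cell markers 0 rose and 5 fell on day 14 (median log2FC -0.80). All 6 rose from day 14 to day 42 (median 0.93), against 15.2% of all genes. The part of these cell types in the level of Col17a1 was not tested.

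Col23a1 took another course and moved away from CTRL late. It was at 118 to 156 CPM in CTRL (median 129), 77.7 to 228 on day 14 (median 107), 58.8 to 96 on day 35 (median 85.2) and 56.7 to 73.5 on day 42 (median 70.5), the last 2 below every CTRL mouse. The log2FC of -0.08 on day 14 passed through -0.55 ± 0.16 (day 21) and -0.69 ± 0.16 (day 35) to -0.95 ± 0.19 at day 42 (adjusted p = 0.00013), and the fall from day 14 to day 42 was itself called (-0.87 ± 0.19, 0.00019). Col13a1 was not called against CTRL on any day (66.3 to 90.0 CPM in CTRL, 46.9 to 83.8 on day 14). Col25a1 was not tested and was at 0.0866 to 1.57 CPM over all mice.

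Both multiplexins, which lie in and beside basement membranes, rose on all 6 days. Col15a1 was at 10.3 to 25.9 CPM in CTRL (median 17.4), 60.3 to 158 on day 14 (median 95.2) and 24.4 to 55.1 on day 42 (median 36.5), a log2FC of 2.48 ± 0.27 on day 14 (adjusted p = 2.3e-12) and 1.17 ± 0.29 on day 42 (0.0018). Col18a1, whose end piece is endostatin, was at 66.8 to 97.9 CPM in CTRL (median 84.5) and 145 to 236 on day 14 (median 185). Its log2FC was 1.19 ± 0.16 on day 14 and 0.55 ± 0.17 on day 42 (adjusted p = 0.016, lost without mouse 7 of that day). Of the 6 type IV chains, the basement membrane collagens that the rule leaves out, 5 rose and 1 fell on day 14 (all genes 32.4% and 29.9%).

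Col28a1, a small chain known from the sheaths of peripheral nerves, stayed high to the end. It was at 2.15 to 7.61 CPM in CTRL (median 4.9), 20.9 to 73.9 on day 14 (median 46.6) and 18 to 35.2 on day 42 (median 25.4), with every BLEO mouse of all 6 days above every CTRL mouse. The log2FC was 3.24 ± 0.23 on day 14 (adjusted p = 2.8e-19), 2.63 ± 0.23 on day 35 and 2.36 ± 0.24 on day 42 (1.8e-11). The Schwann cell markers did not rise beside it: of 5 tested 0 rose and 3 fell on day 14 (all genes 32.4% and 29.9%), and the list of 6 summed to 66.9 to 93.6 CPM in CTRL and 57.7 to 85.2 on day 14. Col7a1, which forms the anchoring fibrils beneath epithelia, was at 12.4 to 21.1 CPM in CTRL (median 18) and 24.8 to 164 on day 14 (median 57.3), a log2FC of 2.08 ± 0.39 (adjusted p = 4.1e-06). It was not called on days 7, 35 and 42 (0.60, 0.65 and 0.22). Col26a1 stayed at 0.168 to 1.67 CPM and was called on no day.

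The time course was also compared between BLEO groups, which leaves CTRL out. From day 7 to day 14, 19 collagen genes rose and 1 (Col17a1) fell, against 9.48% and 7.55% of all genes (17.0% in either direction), and no collagen gene was without overlap (0.358% of all genes above and 0.0432% below); among all genes called, 55.7% were upward, and 42.4% where library size alone was used for scaling. The largest of these rises in genes with counts in CTRL was that of Col11a1 (4.44 ± 0.98), and the fibrillar chains had a median of 1.22. Col27a1 (0.30 ± 0.11, adjusted p = 0.049) lost this call in 48 of the 75 leave-one-out fits, and Col17a1 (-0.92 ± 0.32, 0.040) in 9. From day 14 to day 21 the edgeR test called 0 collagen genes (1.03% of all genes, 0.45% up and 0.579% down), where 2769 of all genes had an unadjusted p below 0.05 and DESeq2 called 1 collagen gene, Col6a2. Leaving out 1 mouse gave 0 to 4 calls, with 4 without mouse 5 of day 14 or mouse 10 of day 21. From day 21 to day 28 and from day 28 to day 35 it called 1 each, Col6a6 in both (0.727% of all genes, 0.413% up and 0.314% down, and then 1.27%, 0.808% up and 0.462% down), up by 1.84 ± 0.46 and down by 1.63 ± 0.45, which rested on day 28 mouse 10 as above. From day 35 to day 42 it called 0 of the collagen genes and 0.0% of all genes; 957 of all 16221 genes had an unadjusted p below 0.05, and DESeq2 called 0 too. Over the whole span from day 14 to day 42, 20 collagen genes fell and 1 rose (18.8% and 15.2% of all genes), 11 were below without overlap (2.68%) and 0 above (1.04%), with a median log2FC of -0.89.

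Of the 23 collagen genes that rose on day 14, 19 had their highest log2FC on that day, 2 on day 21 and 2 on day 28. Choosing genes by their call on day 14 favours a peak on that day and a later fall. The share of all genes with a peak on day 14 was not taken. Still called up on day 42, when 13.7% of all genes were called up, were 9 of them (Col3a1, Col5a2, Col5a3, Col11a1, Col24a1, Col8a1, Col15a1, Col18a1 and Col28a1). As given above, the day 42 calls of Col5a3, Col8a1, Col11a1 and Col18a1 were each lost when certain single mice were left out. Those of Col11a1 and Col24a1 were not made in a fit of only the CTRL and day 42 groups. Of these 9, 8 had fallen between day 14 and day 42, against 18.8% of all genes. The largest falls over that span were in Col11a1 (-2.25 ± 0.92, adjusted p = 0.049, lost in 39 of the 75 leave-one-out fits), Col1a1 (-2.21 ± 0.37, 5.0e-06), Col5a3 (-2.15 ± 0.45) and Col5a1 (-2.15 ± 0.36). Col28a1 fell by 0.89 on the log2 scale. Of the 33 tested chains 7 were called up on all 6 days: Col3a1, Col5a2, Col5a3, Col24a1, Col15a1, Col18a1 and Col28a1. The share of all genes called up on all 6 days was not taken.

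Mice of 1 day differed most in the middle of the course. Over the 23 genes, the median SD of log2 CPM between mice was 0.301 in CTRL, 0.520 on day 14 and 0.330 on day 42, with its highest value, 0.790, on day 28. The same mice tended to be extreme in many of the genes: on day 14 mouse 1 was highest in 15 of 23 and mouse 11 lowest in 16, and on day 35 mouse 6 was highest in 18. On day 28 mouse 5 was highest in 13, and on day 42 mouse 7 was highest in 13. These counts describe mice whose genes share a library and were not tested.

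The enzymes and partners of collagen were read from 5 lists. Of 20 genes for making and folding the chain, 16 rose and 3 fell on day 14 (all genes 32.4% and 29.9%), of which P4ha3, a prolyl 4-hydroxylase subunit, rose most (3.68 ± 0.40) and Colgalt2, a hydroxylysine galactosyltransferase, fell most (-1.46 ± 0.19). Their median log2FC was 0.46, beside 1.21 for the collagen genes and 0.01 for all genes. Of 7 tested genes for cutting the propeptides 4 rose, led by the N-proteinase Adamts2 (1.93 ± 0.15), and 1 fell, Pcolce2 (-1.65 ± 0.26), an enhancer of the C-proteinase. All 5 lysyl oxidases, which crosslink the fibrils, rose on day 14, from Loxl3 (1.24 ± 0.18) to Lox (3.06 ± 0.34), and all 5 fell from day 14 to day 42.

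Of 12 genes whose products bind fibrils, 8 rose and 2 fell on day 14, between fibronectin (Fn1, 3.32 ± 0.36) and tenascin X (Tnxb, -1.65 ± 0.25). Of 10 collagen receptors 5 rose and 2 fell, with a median log2FC of 0.16 and a share of calls near that of all genes (32.4% up and 29.9% down), between Lair1, an inhibitory receptor of leukocytes (1.69 ± 0.19), and Gp6, the collagen receptor of platelets (-1.28 ± 0.31). On day 42, 5 of the 20 chain-making genes, 2 of the 5 lysyl oxidases, 4 of the 12 fibril-binding genes and 2 of the 10 receptors were called up, against 13.7% of all genes. The falls from day 14 to day 42 were called in 15 of the 20 chain-making genes and 6 of the 7 propeptide genes, against 18.8% of all genes.

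**Figure D5:**
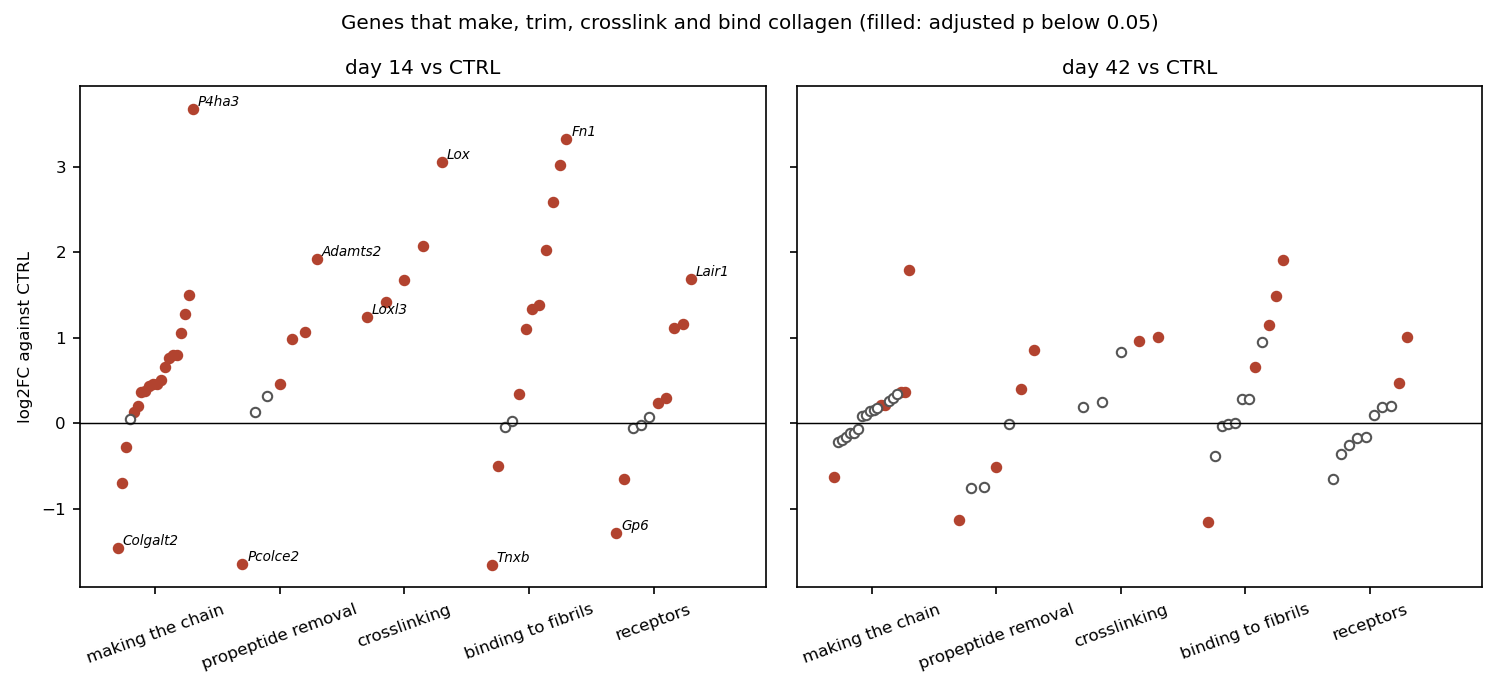
log2FC against CTRL on day 14 (left) and day 42 (right) of the genes of 5 collagen pathway lists (1 point per gene, sorted within a list; filled points have an adjusted p below 0.05). On day 14 the named genes are the highest and lowest called in each list, from P4ha3 (3.68) to Tnxb (-1.65), and on day 42 fewer points are filled.

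Upstream sequence was read for the 30 collagen genes with an entry in the RefSeq promoter table (build GRCm38.p6), which holds 33 windows of them. Only the 250 bases before the start given there were used. Each window was searched on both strands for TATAAA as a core promoter element, for CCAAT as a common upstream element, for GGGCGG as a binding site of Sp1 family proteins, and for CAGAC as a core that Smad proteins bind. In the windows printed here no matches overlapped. GGGCGG stood in 57.6% of the windows of collagen genes and 61.9% of those of genes that rose on day 14, against 32.7% of all 32851 windows. CAGAC stood in 48.5% and 52.4% against 42.2%, CCAAT in 30.3% and 33.3% against 33.8%, and TATAAA in 15.2% and 14.3% against 12.4%. Col1a2 (chr6:4505368-4505617, plus strand) and Col17a1 (chr19:47692043-47692292, minus strand) are shown as a chain that rose and a chain that fell on day 14, with the matches in capitals.
Col1a2: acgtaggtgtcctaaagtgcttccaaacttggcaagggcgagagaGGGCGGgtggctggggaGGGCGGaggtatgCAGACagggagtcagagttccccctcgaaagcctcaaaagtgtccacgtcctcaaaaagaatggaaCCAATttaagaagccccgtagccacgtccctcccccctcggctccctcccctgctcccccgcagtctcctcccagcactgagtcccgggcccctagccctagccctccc
Col17a1: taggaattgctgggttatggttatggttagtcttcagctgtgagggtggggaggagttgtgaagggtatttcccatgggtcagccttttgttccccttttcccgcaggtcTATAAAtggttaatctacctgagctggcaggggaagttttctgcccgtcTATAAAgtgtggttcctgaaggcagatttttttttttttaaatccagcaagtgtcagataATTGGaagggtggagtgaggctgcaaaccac
The Col1a2 window held 2 GGGCGG (beginning 205 and 188 bases before the start), 1 CAGAC (175) and 1 CCAAT (109), and the Col17a1 window held 2 TATAAA (140 and 91) and 1 CCAAT on the other strand (31), read as ATTGG. Neither window lies wholly upstream of the gene as GENCODE places it. The Col1a2 window lies inside that gene, which starts at chr6:4504814. The Col17a1 window overlaps its gene, which reaches chr19:47692094, in the part that holds the CCAAT.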

How the data were processed

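Per the labels, lung RNA was made into strand-specific poly(A) libraries and sequenced. The authors deposited 1 table of raw counts per gene, with reads aligned with STAR 2.7.0f (submitters' processing notes); the counting program and its strand setting are not given in the sources used here. Gene names, classes and exon lengths came from GENCODE vM21 (GRCm38).

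Counts were tested in R 4.3.3 with edgeR 4.0.16 (TMM, filterByExpr, quasi-likelihood F test, Benjamini-Hochberg) in 1 fit of 75 mice and 16221 genes, checked on simulated data. Named were all collagen genes and, in each list, the highest and lowest called. Chain ratios used scipy 1.17.1. The closing section gives the alternatives: DESeq2 1.42.0, other scalings, filters and samples, and a block for the replicate number. No 2 libraries were the same (375 pairs). Depth, 9240291 to 14665247 counts, limits genes below about 1 CPM, and limits from counts cover counting error only. The members and lists were chosen with earlier results of these data known.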

Additional observations from a re-analysis of the deposited data

Results flagged for a closer look

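In 85 sets of a collagen gene in a group of 4 to 10 mice, 5 held 1 mouse whose gap to the others passed Dixon's 95% value, where chance gives about 1 in 20. On day 42, mouse 7 had 8.88 CPM of Col11a1 (the other 6 mice 0.172 to 0.988) and 34 CPM of Col7a1 (15.2 to 20.6). Mouse 5 of day 42 had 56.7 CPM of Col23a1 (66.7 to 73.5), and mouse 1 of that day had 0.691 CPM of Col6a4 (1.29 to 1.90). CTRL mouse 8 had 1.53 CPM of Col6a6 (0.313 to 0.678).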

How the results depend on the processing

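Of 264 log2FC values, 261 kept direction and call with DESeq2, 258 with library size only, 258 with upper quartile scaling, 253 with no filter and 253 with a replicate block. With only the groups compared 206 kept both, 13 gained and 2 lost a call, the others not passing the filter of the smaller fits; with 10 counts in every mouse 182 did and 2 lost theirs. Col6a5 on day 28 changed sign with DESeq2 (-0.56) and in the lowest leave-one-out fit (-0.58, highest 1.20). Without day 28 mouse 10 and without the filter, an alternative chosen after seeing the data, Col6a5 was at -0.58 and Col6a6 at -0.15.

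The count of calls from day 14 to day 21 was 1 with DESeq2. From day 21 to day 28 it was 0 with 10 counts in every mouse, with only the groups compared and with the replicate block. From day 28 to day 35 it was 0 with library size only, upper quartile, no filter, 10 counts in every mouse, only the groups compared and the replicate block. The causes were not tested. Leaving out 1 mouse gave 17 to 18 calls on day 7, 25 to 26 on day 14, 24 to 26 on day 21, 24 to 27 on day 28, 18 to 19 on day 35 and 7 to 13 on day 42. Between BLEO groups it gave 17 to 21 from day 7 to day 14, 0 to 4 in each of the next 3 steps, 0 to 0 from day 35 to day 42 and 18 to 22 from day 14 to day 42. The replicate number did not pair mice: over 204 same-numbered pairs the deviations had a median correlation of 0.0057, and 7 of 75 mice correlated best with their own number; the block gave 25 calls on day 28, 20 on day 35 and 12 on day 42.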
